A study of Mus musculus with 24 samples.

Results

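Genes of myelin and of the oligodendrocyte lineage were followed in the brains of mice fed 4 different diets. The group holds 36 genes chosen by name for their known roles, with earlier results of these data known. They were sorted into 7 roles. These were proteins of the myelin membrane, gap junction proteins, enzymes of myelin lipids and transcription factors of the lineage. Further roles were enzymes and carriers, receptors and other lineage genes, and the precursor genes Pdgfra, Cspg4 and Gpr17. Each gene was read from the probe set that is annotated to it alone and has the highest mean over the 24 arrays. Of the 36 genes, 34 were tested among 13839 features of the whole brain data set. Gjc3 had a mean log2 level of 3.91, under the filter of 4.07, and Trf had no probe set annotated to it alone, so that neither was tested. The tissue was the right cerebral hemisphere of 24 female mice of strain NMR-1, 8 weeks old when the feeding began and killed after 2 weeks on the diet. The 4 groups of 6 mice ate mouse pellets, on which all mice had been raised, the vegetables, fruit and yogurt given to captive chimpanzees (Chimpanzee), cooked human cafeteria meals (HumanCafe) or human fast food (FastFood). The methods state that littermates were spread over the diets. Each mouse gave 1 array, and the labels divide RNA processing into 2 batches with 3 mice of every diet.

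Oligodendrocytes wrap axons of the central nervous system in myelin, a stack of membrane that is rich in lipid and held together by a small set of abundant proteins. They arise from precursor cells that divide and carry the receptor Pdgfra and the proteoglycan Cspg4, and that pass through a stage marked by Gpr17 before they make myelin. Sox10, Olig1, Olig2 and Nkx6-2 set up the lineage, and Myrf switches on myelin genes when the cells mature. Since whole tissue was measured, fewer cells of a type and less RNA per cell cannot be told apart.

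RefSeq promoters, on build GRCm38.p6, were at hand for 24 of the 36 genes, each with 250 bases before and 50 bases after the start site. Those of Opalin, Mog and Cnp are shown, from the 5 genes whose promoter held a word searched for Myrf. Opalin had the smallest p of the group between human and chimpanzee diets, Mog sits on the myelin surface, and Cnp encodes an enzyme of myelin whose log2 difference between these diets was 0.23 ± 0.23 (SE). The words searched on both strands were CTGGCAC and CTGGTAC for Myrf, and ACAAAG and ACAATG for Sox proteins, with no overlap between the 2 sets. Capitals mark the matches. In Mog, on the minus strand at chr17:37023399-37023648, the Myrf word stands 83 bases before the start site. In Cnp, on the plus strand at chr11:100574689-100574938, the Sox word begins 167 bases and the Myrf word 81 bases before it. In Opalin, on the minus strand at chr19:41077114-41077363, a Sox word begins 139 bases before the start site, and a further stretch of 30 bases after it, at chr19:41077069-41077098, holds a Sox word at bases 24 to 29 and a Myrf word at bases 37 to 43 after the start.
Mog: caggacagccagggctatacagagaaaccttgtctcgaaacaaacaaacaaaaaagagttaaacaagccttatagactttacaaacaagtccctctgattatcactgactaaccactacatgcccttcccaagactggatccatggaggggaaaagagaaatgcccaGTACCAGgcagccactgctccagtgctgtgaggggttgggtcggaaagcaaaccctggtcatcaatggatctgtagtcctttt
Cnp: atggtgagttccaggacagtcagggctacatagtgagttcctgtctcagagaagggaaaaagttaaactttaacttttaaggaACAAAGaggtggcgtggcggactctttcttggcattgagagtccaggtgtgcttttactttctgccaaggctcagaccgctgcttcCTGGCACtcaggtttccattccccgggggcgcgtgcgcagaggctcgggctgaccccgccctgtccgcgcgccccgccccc
Opalin, before the start site: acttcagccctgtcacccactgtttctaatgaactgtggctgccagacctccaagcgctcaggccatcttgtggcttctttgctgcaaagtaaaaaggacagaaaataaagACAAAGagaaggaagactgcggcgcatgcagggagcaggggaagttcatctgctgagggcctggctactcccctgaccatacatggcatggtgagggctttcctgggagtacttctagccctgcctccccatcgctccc
Opalin, after the start site: aatgggagACAAAGacctgcaGTGCCAGtg
A Myrf word was found in the promoters of 5 of the 24 genes (Cnp, Lpar1, Mag, Mog and Opalin), which is 20.8%, against 8.1% of all 27025 genes in the table. A Sox word was found in 11 of the 24, or 45.8%, against 31.7% of all genes. These are matches of letters only and were not tested.

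Some arrays stood apart from the rest and bear on every result. The log2 signal of the 18S ribosomal RNA control probe sets separated the batches on the 3 foods other than pellets, at 5.87 to 6.58 in batch 1 and 4.88 to 5.15 in batch 2, but ran the other way on pellets, where labelled batch 1 lay at 4.96 to 5.51 and labelled batch 2 at 5.92 to 6.42. The labels were kept as given. Markers of the tissue were present, with 14 of 14 listed for neurons, 10 of 10 for astrocytes and 12 of 14 for cortex and hippocampus above the filter, along with 13 of 14 for thalamus and 5 of 10 for cerebellum. The array of pellet batch 2 replicate 1 had the narrowest spread of log2 levels, with an SD of 1.58 against 1.81 to 2.06 on the other 23 arrays, and a median correlation with the others of 0.892 against 0.98 to 0.993. Within batch 1, the arrays of chimpanzee replicate 1 and fast food replicate 3 each had a spread of 2.02, as wide as the batch 2 arrays. The 3′ minus 5′ difference of the Actb control was 0.42 on the pellet array that stood apart and 0.37 to 0.68 over all arrays. The 16 tested mature myelin genes are those of the membrane, gap junction and lipid roles. Between batches their mean level ran opposite to the 18S signal, as the plot of array levels against that signal shows. On the 3 foods their mean deviation was -0.19 in batch 1 and 0.29 in batch 2. On pellets it was 0.16 in labelled batch 1 and -0.45 in labelled batch 2.

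**Figure D1:**
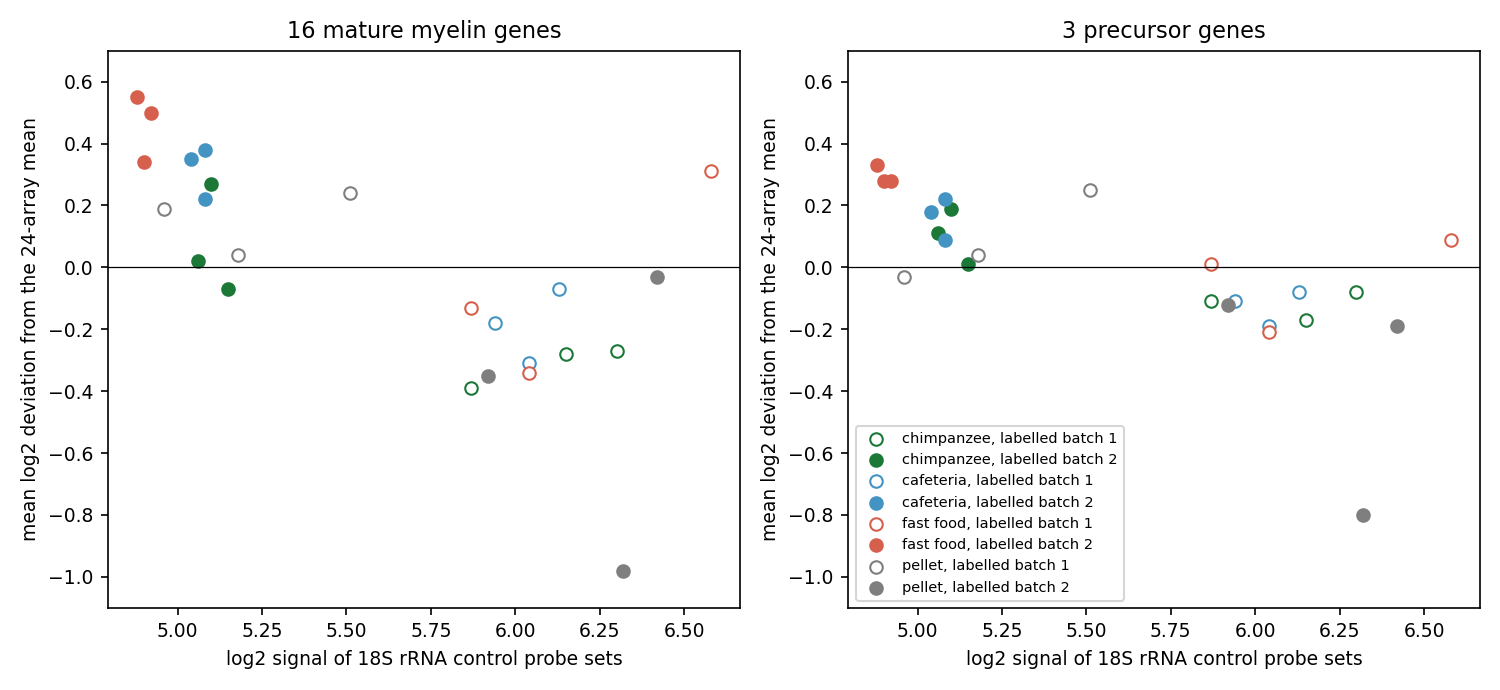
Mean log2 deviation of the 16 mature myelin genes (left) and the 3 precursor genes (right) from their means over 24 arrays, against the log2 signal of 18S rRNA, 1 point per array. On the 3 foods, the arrays of batch 1 lie below 0 on the left, except for fast food replicate 3 at 0.31, and the pellet array that stood apart lies at -0.98 on the left and at -0.80 on the right.

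On the human diets, mature myelin genes were higher on average than on the chimpanzee diet, but no single gene passed the test. The question here is whether food typical of humans changes these genes relative to food typical of chimpanzees. In limma, with batch as a term, 0 of the 34 genes had an adjusted p under 0.05 between the mean of both human diets and the chimpanzee diet, as did 0% of all 13839 features. Of the 34 genes, 31 had a higher mean on the human diets, with a median log2 difference of 0.21, against 54.5% of all features and a median of 0.01. An unadjusted p under 0.05 with a higher mean was found for 5 of the 34, or 14.7%, against 1.02% of all features. A higher mean in both labelled batches was found for 28 of the 34 genes, against 30% of all features, and the medians within labelled batches 1 and 2 were 0.15 and 0.25. When only the arrays of the compared diets were in the fit, so that the pellet arrays did not enter the estimate of the spread, 0 genes passed and 20 of the 34 had an unadjusted p under 0.05, against 899 of 13839 features. Only 7 of the 13839 features passed in that fit.

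Among the proteins of the myelin membrane, all 11 had a higher mean on the human diets, by a median log2 difference of 0.23. Opalin, a membrane protein of myelinating oligodendrocytes, had log2 levels from 6.50 to 7.01 on the chimpanzee diet, with a median of 6.57, and from 6.66 to 7.37 over the 12 human arrays, with a median of 7.06. The ranges overlapped, and the 3 chimpanzee arrays of batch 1 all lay below the lowest human array. The log2 difference was 0.39 ± 0.12 (SE; 1.31-fold), with 0.45 in batch 1 and 0.34 in batch 2 (unadjusted p = 0.00228, adjusted p = 1.0 in limma). Pllp, a proteolipid of myelin, ranged from 6.92 to 7.62 around a median of 7.28 on the chimpanzee diet and from 7.17 to 8.01 around 7.60 on the human diets. Its log2 difference was 0.31 ± 0.12 (SE), with overlapping arrays (unadjusted p = 0.0142, adjusted p = 1.0 in limma). Mbp, the major protein that compacts myelin, differed little between these diets: 11.39 to 12.76 on the chimpanzee diet and 11.52 to 12.88 on the human diets, a log2 difference of 0.06 ± 0.26 (SE). On all 3 foods its batch 2 arrays were at 12.54 or above. Mog, a protein of the outer myelin surface, had a log2 difference of 0.23 ± 0.17 (SE), which was within the spread between arrays.

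**Figure D2:**
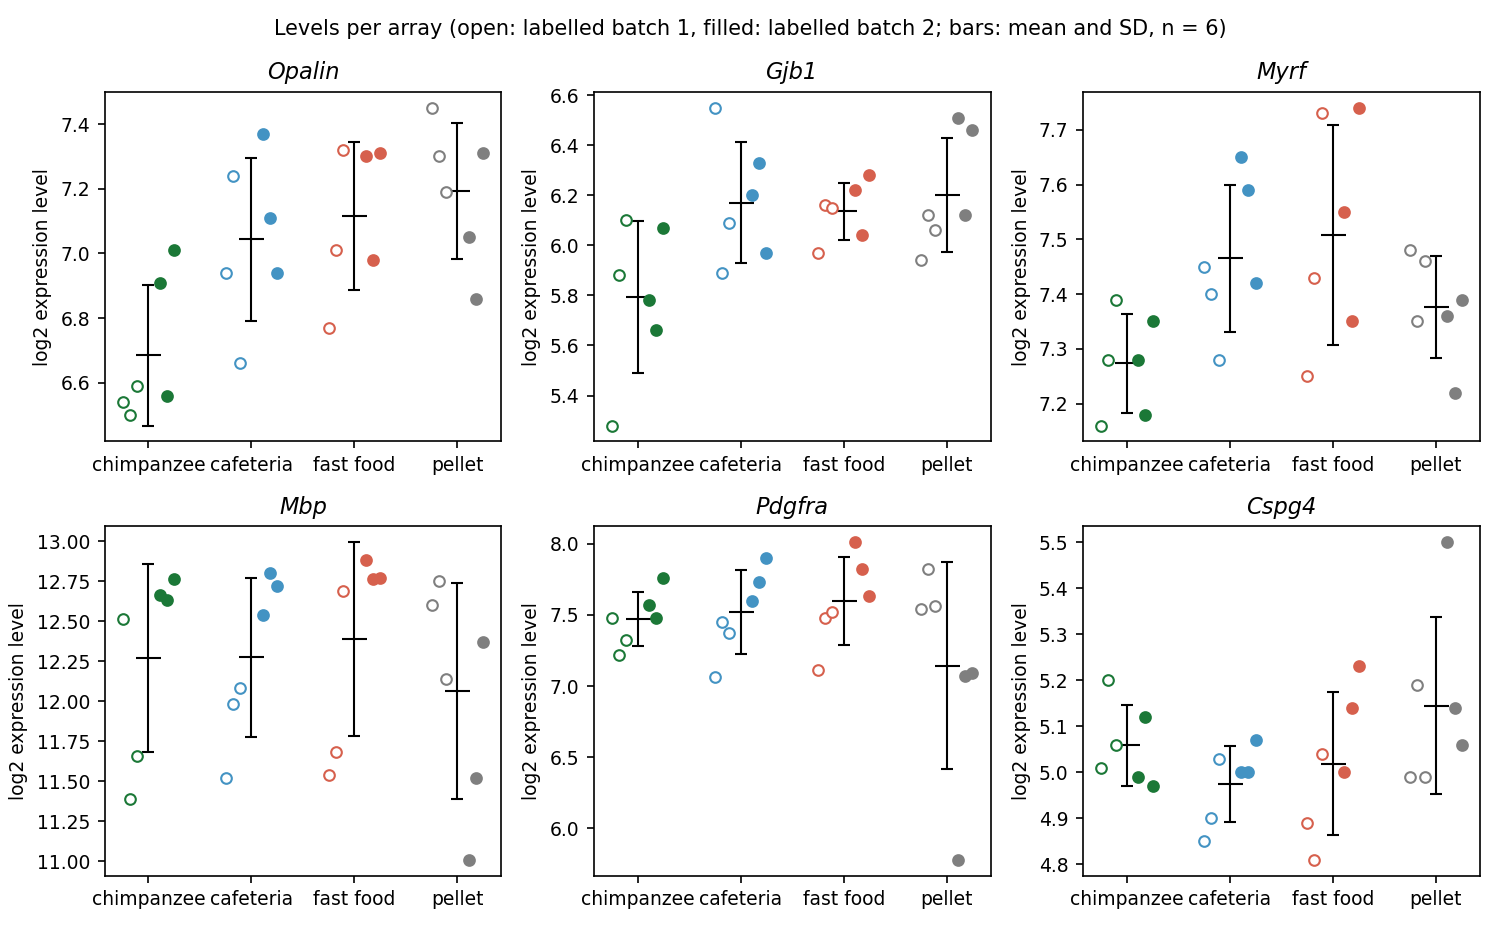
Log2 expression levels of 6 genes on every array by diet, open for labelled batch 1 and filled for labelled batch 2, with the mean and SD of 6 arrays as bars. Opalin, Gjb1 and Myrf have their lowest means on the chimpanzee diet, at 6.68, 5.80 and 7.27, while Mbp differs more between batches than between diets on the 3 foods.

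Gjb1, the connexin that joins layers of myelin, was at 5.28 to 6.10 on the chimpanzee diet, with a median of 5.83, and the human arrays lay between 5.89 and 6.55, around a median of 6.16. The lowest array, at 5.28, was chimpanzee batch 1 replicate 1, which stood apart. The log2 difference was 0.36 ± 0.12 (SE; 1.28-fold), and 0.26 to 0.43 with each array left out in turn (unadjusted p = 0.00537, adjusted p = 1.0 in limma). A second probe set of Gjb1, under the filter at a mean of 4.00, differed by 0.25. Of the enzymes of myelin lipids all 4 were higher on the human diets in mean, by 0.21 to 0.46. Gal3st1, which adds sulfate to galactolipids to make sulfatide, was at 4.82 to 5.27 on the chimpanzee diet and at 4.95 to 5.64 on the human diets, a log2 difference of 0.24 ± 0.11 (SE; unadjusted p = 0.0406, adjusted p = 1.0 in limma). The arrays of both groups overlapped for each of these genes.

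The transcription factors of the lineage did not act as 1 group. Myrf, at 7.16 to 7.39 on the chimpanzee diet and 7.25 to 7.74 on the human diets, had a log2 difference of 0.21 ± 0.08 (SE; 1.16-fold), with 0.15 and 0.28 within the batches (unadjusted p = 0.0157, adjusted p = 1.0 in limma). Its chimpanzee arrays had an SD of 0.09, less than the difference. Sox10, which acts together with Myrf at myelin genes, was at 6.61 to 6.98 on the chimpanzee diet and at 6.59 to 7.15 on the human diets, a log2 difference of -0.04 ± 0.09 (SE). A second probe set of Sox10 above the filter gave -0.06. Olig2 had a log2 difference of 0.19 ± 0.17 (SE), within the spread between arrays. All 5 tested enzymes and carriers had higher means on the human diets, by 0.12 to 0.26, and none had an unadjusted p under 0.05. Among receptors and other lineage genes, Lpar1, a receptor for lysophosphatidic acid, was at 7.18 to 7.69 on the chimpanzee diet and 7.17 to 8.21 on the human diets, a log2 difference of 0.34 ± 0.17 (SE), of 0.13 in batch 1 and 0.56 in batch 2. With arrays weighted by their quality, Lpar1 was the only gene of the group that passed (adjusted p = 0.035 in limma, against 0.28 to 1.0 under the other settings), as did 0.405% of all features. Cdh19, a cadherin of glia, differed by -0.18 ± 0.10 (SE).

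**Figure D3:**
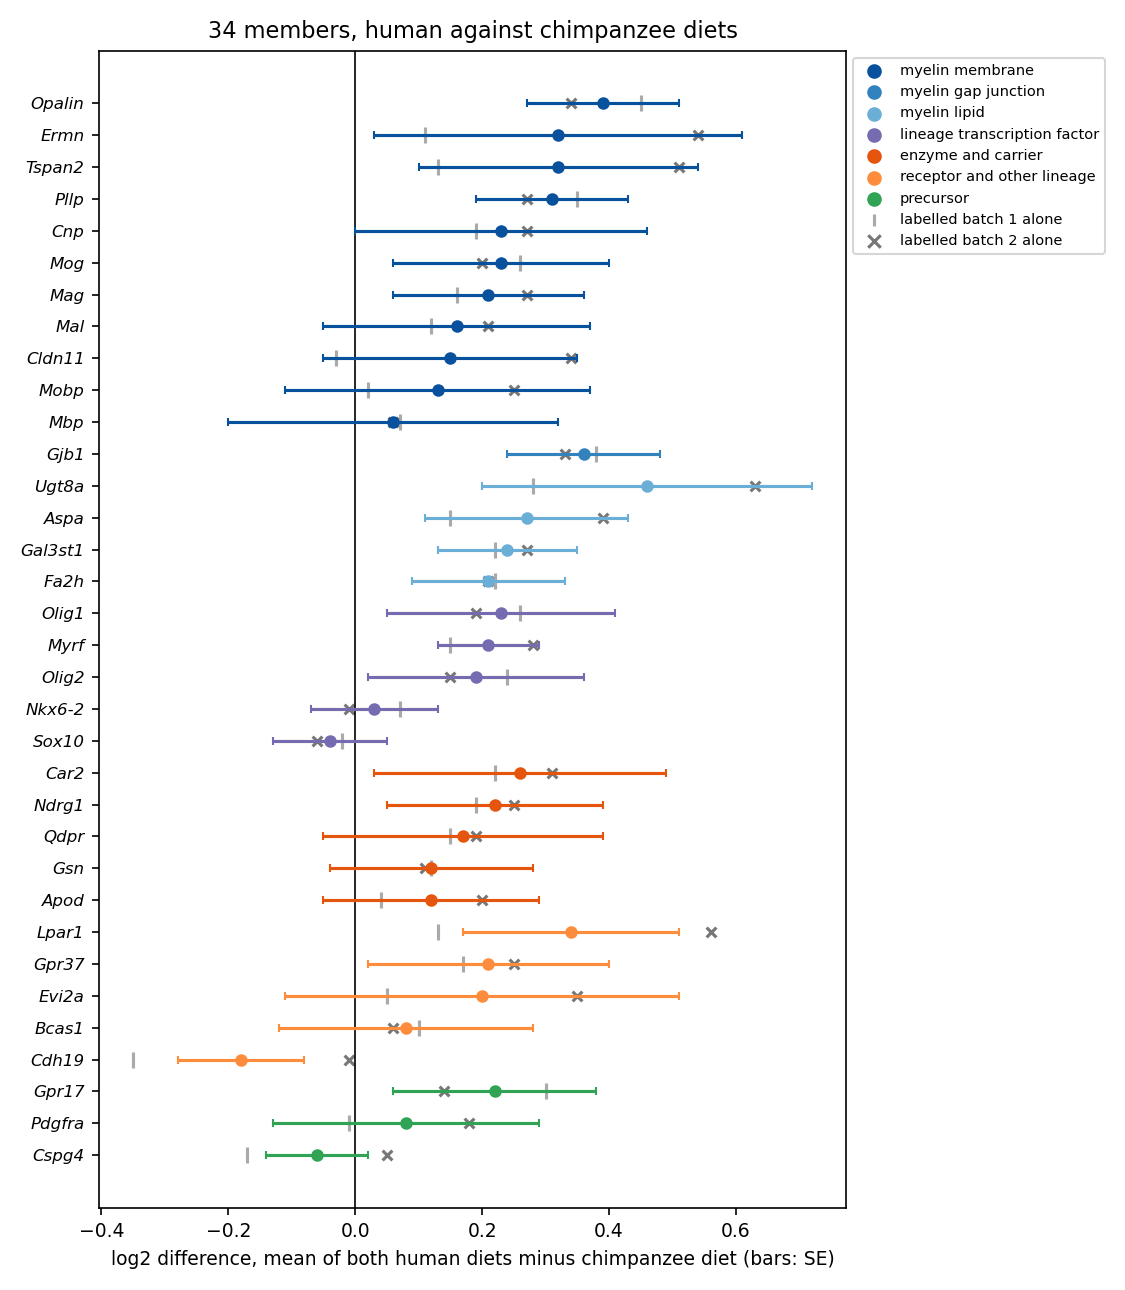
Log2 difference of the 34 tested genes between the mean of both human diets and the chimpanzee diet, with its SE, in limma over 24 arrays, coloured by role, with the difference within each labelled batch as a tick and a cross. Values run from -0.18 (Cdh19) to 0.46 (Ugt8a), and all 16 mature myelin genes lie above 0.

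The precursor genes differed less between these diets in median than the mature genes, with 0.08 over 3 genes against 0.24 over 16, a contrast that is described and was not tested. The precursor median was 0.04 without chimpanzee batch 1 replicate 2 or fast food batch 2 replicate 1, 0.05 without cafeteria batch 2 replicate 3, 0.13 without replicate 1 of batch 1 on either human diet and 0.14 without chimpanzee batch 2 replicate 3. Pdgfra, the receptor that drives division of precursors, was at 7.22 to 7.76 on the chimpanzee diet and 7.06 to 8.01 on the human diets, a log2 difference of 0.08 ± 0.21 (SE). Cspg4, or NG2, was at 4.97 to 5.20 and 4.81 to 5.23, a log2 difference of -0.06 ± 0.08 (SE). Gpr17, which marks the step between precursor and myelinating cell, was at 6.06 to 6.78 and 6.22 to 6.93, a log2 difference of 0.22 ± 0.16 (SE), close to the median of the mature genes. Further lists of the lineage gave a median of 0.13 over 28 other genes of mature oligodendrocytes, all 28 higher, and of 0.11 over 9 other precursor genes, of which 8 were higher. Of the other mature genes, Tmem125, a membrane protein of oligodendrocytes, had a log2 difference of 0.29 ± 0.11 (SE; unadjusted p = 0.014, adjusted p = 1.0 in limma). With the other precursor genes added, the median of the 12 precursor genes was 0.10. Per array, the mean deviation of mature genes minus that of precursor genes was -0.28 to 0.09 on the chimpanzee diet and -0.14 to 0.30 on the human diets, with overlap.

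Markers of brain regions also differed in mean between these diets. The 13 thalamus markers were all higher on the human diets, by a median log2 difference of 0.49, and the 5 cerebellum markers were all higher, by 0.75, while 11 of the 12 markers of cortex and hippocampus were lower, by a median of -0.09. None of these genes passed in limma, where 6 of the thalamus, 0 of the cerebellum and 1 of the cortex markers had an unadjusted p under 0.05. The mean deviation of the thalamus markers per array was -0.89 to 0.04 on the chimpanzee diet and -0.15 to 0.44 on the human diets, and that of the cerebellum markers was -0.71 to -0.14 and -0.85 to 1.62. The lowest thalamus values were those of chimpanzee batch 1 replicate 1, at -0.89, and chimpanzee batch 2 replicate 2, at -0.75. Without the first of these arrays the thalamus median fell to 0.27 and that of the mature myelin genes was 0.25, and without the second they were 0.34 and 0.24. Markers of choroid plexus and ependyma were higher in 9 of 9, by a median of 0.14, those of microglia in 8 of 10, by 0.06, and those of endothelium in 4 of 5, by 0.08, while markers of neurons and astrocytes had medians of 0.01 and -0.01. The part of these markers in the myelin difference was not tested.

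**Figure D4:**
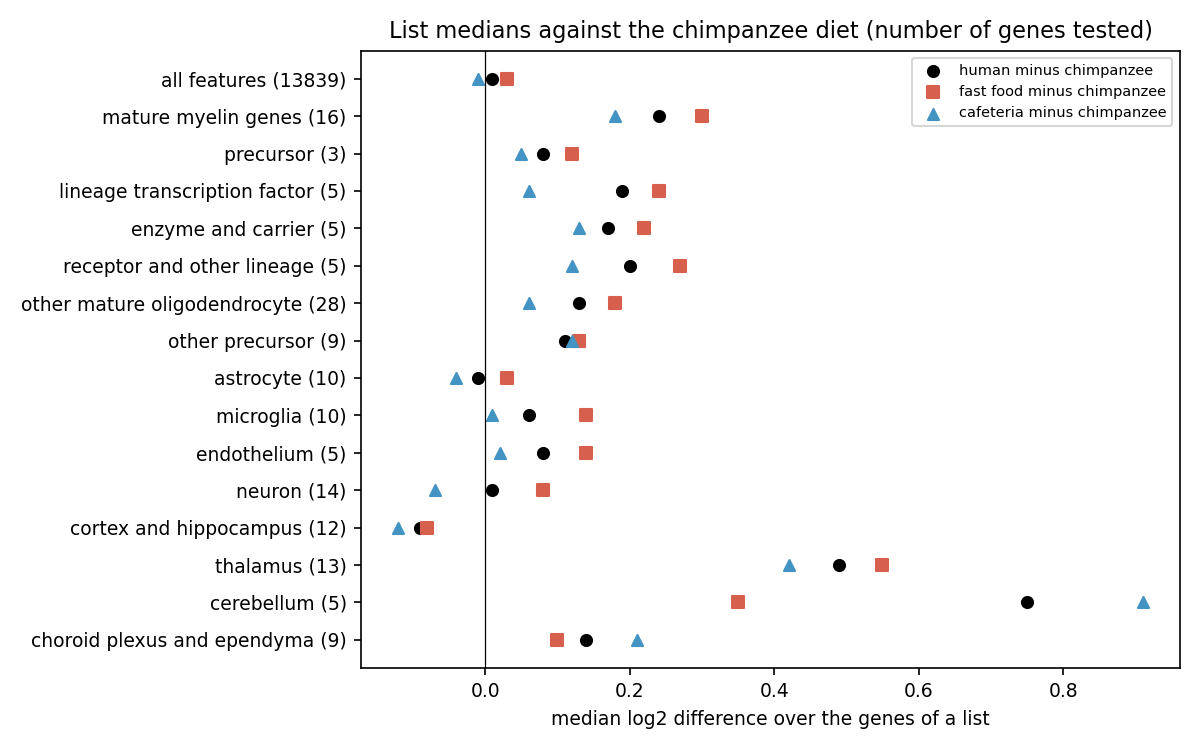
Median log2 difference against the chimpanzee diet for roles of the gene group and for marker lists of other cell types and brain regions, with the number of genes tested in brackets, for both human diets together, fast food and the cafeteria diet. The mature myelin genes lie at 0.18 to 0.30 and all features at -0.01 to 0.03, while thalamus and cerebellum markers lie further to the right.

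Taken singly, fast food differed from the chimpanzee diet by a median of 0.28 over the 34 genes and the cafeteria diet by 0.14, with 31 of 34 higher in each. Of all features, 60.3% were higher on fast food and 45.9% on the cafeteria diet, with medians of 0.03 and -0.01. Both comparisons use the same chimpanzee arrays. limma called 0 genes in each, as it did for 0% of all features, and 6 and 3 of the 34 had an unadjusted p under 0.05, against 252 and 197 of 13839 features. For fast food, all 6 were higher, or 17.6%, against 1.19% of all features with such a p and a higher mean. Opalin was higher than on the chimpanzee diet by 0.43 ± 0.13 (SE) on fast food and by 0.36 ± 0.13 (SE) on the cafeteria diet, and Gjb1 by 0.34 and 0.38. Aspa, which splits N-acetylaspartate and so supplies acetate for lipids, had a log2 difference of 0.40 on fast food and of 0.14 on the cafeteria diet. Cdh19 ran the other way on the cafeteria diet, with levels of 3.84 to 4.25 against chimpanzee levels of 4.24 to 4.66, which gave a log2 difference of -0.30 ± 0.12 (SE; unadjusted p = 0.0165, adjusted p = 1.0 in limma). Between fast food and the cafeteria diet 31 of the 34 genes were higher on fast food in mean, by a median of 0.13, against 68% of all features and a median of 0.05. The median of the mature genes, 0.13, was 0.24 without fast food batch 1 replicate 1, 0.08 without fast food batch 2 replicate 3 and 0.07 without cafeteria batch 1 replicate 1. limma called 0% of the features there, and 0 of the 34 genes and 91 features had an unadjusted p under 0.05. Olig2, which keeps cells in the lineage, was at 5.62 to 5.91 on fast food and 5.24 to 5.63 on the cafeteria diet, a log2 difference of 0.28 ± 0.20 (SE) that did not pass.

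Among all 4 diets, limma's F test called 0 of the 34 genes and 6 features, or 0.0434%, and 4 of the 34 genes had an unadjusted p under 0.05, against 739 features. The smallest p was that of Cdh19 (adjusted p = 0.077), followed by Opalin, Gjb1 and Olig2 (adjusted p = 0.72 for each). A two-way analysis of variance after the methods, run here with the filter on the mean level, 1 probe set per gene and all 24 arrays, where the study used detection calls, the smallest p of a gene's probe sets and 1 pellet array fewer, removed 27 of the 34 genes because of an interaction of diet and batch, and of the 7 left only Opalin had an unadjusted p under 0.01. Over all 13839 features, 7815 were removed and 126 had such a p. In the pellet comparison the same analysis removed 28 of the 34 genes and 10310 features. It called Cdh19 after adjustment, and 182 features had an unadjusted p under 0.01.

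On pellets, most genes of the group had higher means than on the other diets in labelled batch 1 and lower means in labelled batch 2. Over both batches 29 of the 34 genes had a lower mean. A higher mean was found for 5, or 14.7%, against 29.4% of all features. The median log2 difference over the 34 genes was -0.24, against a median of -0.14 for all features. limma called 0 of the 34 genes and 1 feature, or 0.00723%, while 4 genes, or 11.8%, had an unadjusted p under 0.05 and a lower mean, against 17.4% of all features, so that the share of the members was under the background. Within labelled batch 1 the median over the 34 genes was 0.29, against 0.11 over all features. Within labelled batch 2 it was -0.78, against -0.43 over all features, which thus ran the same way in median. Of the 34 genes, 28 were higher on pellets in labelled batch 1 and lower in labelled batch 2. Opalin, Gjb1, Nkx6-2, Cdh19 and Cspg4 had 1 direction in both batches, though Nkx6-2, at 0.16, turned to -0.19 with array weights. Sox10 was at -0.00 in the first batch. Without pellet batch 2 replicate 1, chimpanzee batch 1 replicate 1 and fast food batch 1 replicate 3, the median was 0.03, and with array weights, which reduce the weight of poor arrays, it was 0.20 and 13 of the 34 genes passed, as did 25% of all features. Without pellet batch 2 replicate 1 alone the median was -0.01. Markers of other cells had medians of the same sign, -0.17 for microglia and -0.30 for endothelium, with a median of -0.26 for neurons (0 of 14 higher; 0.41 and -0.97 within the labelled batches), of -0.21 for astrocytes (1 of 10 higher; 0.40 and -0.92) and of -0.17 for the thalamus (4 of 13 higher; 0.31 and -0.76). Their part in these values was not tested. The direction of the group on pellets thus differed between batches and settings.

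Cdh19 ranged from 3.48 to 4.03 on pellets, against 3.84 to 4.66 over the remaining 18 arrays, a log2 difference of -0.53 ± 0.10 (SE), with -0.33 and -0.73 within the batches (adjusted p = 0.059 in limma). The pellet arrays overlapped the others only with arrays of the human diets. Its adjusted p ranged from 0.0013 to 0.43 over the alternatives, with 0.037 when the level was not filtered and 0.43 without the 3 arrays that stood apart, and its pellet mean of 3.76 was under the filter of 4.07. Opalin ranged from 6.86 to 7.45 on pellets, against 6.50 to 7.37 over those 18 arrays, a log2 difference of 0.25 ± 0.11 (SE; unadjusted p = 0.0334, adjusted p = 0.22 in limma), of 0.47 in labelled batch 1 and 0.02 in labelled batch 2. Olig2 and Sox10 had log2 differences of -0.43 ± 0.16 and 0.20 ± 0.08 (SE; adjusted p = 0.21 for each in limma), and within labelled batch 2 these were -0.92 and 0.41, against 0.07 and -0.00 within labelled batch 1. Olig2 was at 3.98 on pellet batch 2 replicate 1, and without that array its difference was -0.19 in all and -0.54 within labelled batch 2. Pdgfra and Gpr17 had differences of -0.38 ± 0.20 and -0.30 ± 0.15 (SE), and Cspg4 of 0.13 ± 0.07 (SE). Their lowest arrays, at 5.78 for Pdgfra and 5.30 for Gpr17, were the pellet array that stood apart, without which their differences were -0.09 and -0.08.

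Most genes of the group differed between the labelled batches. On the 3 foods, 23 of the 34 genes rose from batch 1 to batch 2, or 67.6%, against 28.1% of all features called higher, and 1 gene fell, against 5.19% of features called lower. The median log2 difference over the 34 genes was 0.41, against 0.14 over all features. Over the 3 foods together, 32 of the 34 genes were higher in batch 2 in mean, or 94.1%, against 69.1% of all features. On each of the 3 foods singly, 28 of the 34 were higher in batch 2. Mal, a proteolipid that sorts membrane, rose from 8.90 to 9.85 in batch 1 (median 9.26) to 9.74 to 10.07 in batch 2 (median 9.98), by 0.70 ± 0.12 (SE; adjusted p = 0.00036 in limma). Mobp, a basic protein of myelin, rose by 0.81 ± 0.14 (SE; adjusted p = 0.00058), and Ermn, which bundles actin in oligodendrocytes, by 0.87 ± 0.18 (SE; adjusted p = 0.0016). Car2, carbonic anhydrase of oligodendrocytes, rose by 0.80 ± 0.13 (SE; adjusted p = 0.00041). Tspan2, a tetraspanin, rose by 0.60 ± 0.12 (SE; adjusted p = 0.0017), and Mbp by 0.83 ± 0.18 (SE; adjusted p = 0.0022), from 11.39 to 12.69 in batch 1 to 12.54 to 12.88 in batch 2. Only the array of fast food batch 1 replicate 3, at 12.69, lay within the batch 2 range of Mbp. For none of the 34 genes did all batch 2 arrays of the 3 foods lie above all of batch 1, which 4.77% of all features did.

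Of the mature genes 12 of 16 rose, with a median of 0.44, and of the precursor genes 2 of 3, with a median of 0.37. Pdgfra rose by 0.39 ± 0.14 and Gpr17 by 0.37 ± 0.11 (SE; adjusted p = 0.033 and 0.019 in limma), while Cspg4 had a difference of 0.08 ± 0.07 (SE; adjusted p = 0.38). Mog rose by 0.47 ± 0.11 (SE; adjusted p = 0.0034). Sox10 was the gene that fell, by 0.20 on the log2 scale with an SE of 0.07 (adjusted p = 0.033), and its second probe set above the filter differed by -0.18. Olig2 had a difference of 0.16 ± 0.13 (SE; adjusted p = 0.33), and Myrf, Nkx6-2 and Gjb1 had differences of 0.08, -0.01 and 0.05 that did not pass. Neuron markers, of which 11 of 14 rose by a list median of 0.55, and astrocyte markers, of which 5 of 10 rose with a list median of 0.44, moved with the batch too. After the arrays were quantile normalized once more, which removes the unequal spread of the arrays, 8 of the 34 genes passed, against 20.2% of all features, a share near that background, and the medians of the mature and precursor genes were 0.15 and 0.14.

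On pellets the labelled batches differed the other way. Of the 34 genes 24 fell from labelled batch 1 to labelled batch 2, or 70.6%, against 51.2% of all features called lower, and 0 rose, against 11.3% of features. The median log2 difference was -0.69, against -0.42 over all features. Neuron markers, with 11 of 14 lower by the test and a median of -0.79, astrocyte markers, with 8 of 10 and -0.77, and thalamus markers, with 7 of 13 lower and a median of -0.89, moved with it, as did those of microglia (7 of 10, -0.48) and endothelium (4 of 5, -0.60). Their part was not tested. Without pellet batch 2 replicate 1, 7 of the 34 genes were called lower (Mobp, Car2, Mal, Gsn, Pdgfra, Tspan2 and Evi2a). This was 20.6%, against 18% of all features, a share near that background. The median over the 34 genes was then -0.39, against -0.25 over all features. For 19 of the 34 genes all 3 arrays of labelled batch 1 lay above all 3 of labelled batch 2, which held for 50% of all features. Mal was at 9.57 to 9.89 in labelled batch 1 and at 8.45, 8.88 and 9.26 in labelled batch 2, a fall by 0.89 (adjusted p = 0.0034 in limma). Pdgfra was at 7.54 to 7.82 and at 5.78, 7.07 and 7.09, a fall by 1.00 on the log2 scale (adjusted p = 0.0041). Gsn, which severs actin filaments, fell by 0.73 (adjusted p = 0.0038). Tspan2 fell by 0.93, Car2 by 0.89 and Mobp by 0.92, with adjusted p of 0.0038, 0.0056 and 0.0061. Without pellet batch 2 replicate 1 the falls were 0.56 for Tspan2, 0.59 for Car2, 0.69 for Mobp, 0.69 for Mal, 0.49 for Gsn and 0.56 for Pdgfra.

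The test of the difference between the batch effect on pellets and that on the 3 foods called 28 of the 34 genes as lower on pellets, or 82.4%, against 55.6% of all features, and 1 gene, Sox10, as higher, against 13.7% of features. Ermn had a contrast of -1.95 ± 0.36 (SE), Evi2a of -1.85 ± 0.44 and Mobp of -1.73 ± 0.28. Without pellet batch 2 replicate 1 these were -1.37, -1.05 and -1.50, and 26 of the 34 genes were called, against 56.3% of all features. Sox10 had a contrast of 0.41 ± 0.14 (SE; adjusted p = 0.013 in limma). The F test of the interaction over all 4 diets called 24 of the 34 genes, or 70.6%, against 50.7% of all features. After quantile normalization once more, the contrast called 18 of the 34 genes, against 51.8% of all features, a share near that background. The interaction then called 5 of the 34 genes, against 24.9% of all features, a share under the background. With labelled batches 1 and 2 swapped for the pellet mice, both tests called 0 of the 34 genes in limma, and 0 of all 13839 features. For the change with batch of the difference between human and chimpanzee diets, limma's test called 0 of the 34 genes and 0 of 13839 features, with an unadjusted p under 0.05 for 0 and 200 of them, which does not show that the difference was equal in both batches. Within the batches the difference was 0.13 and 0.56 for Lpar1 and 0.13 and 0.51 for Tspan2.

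**Figure D5:**
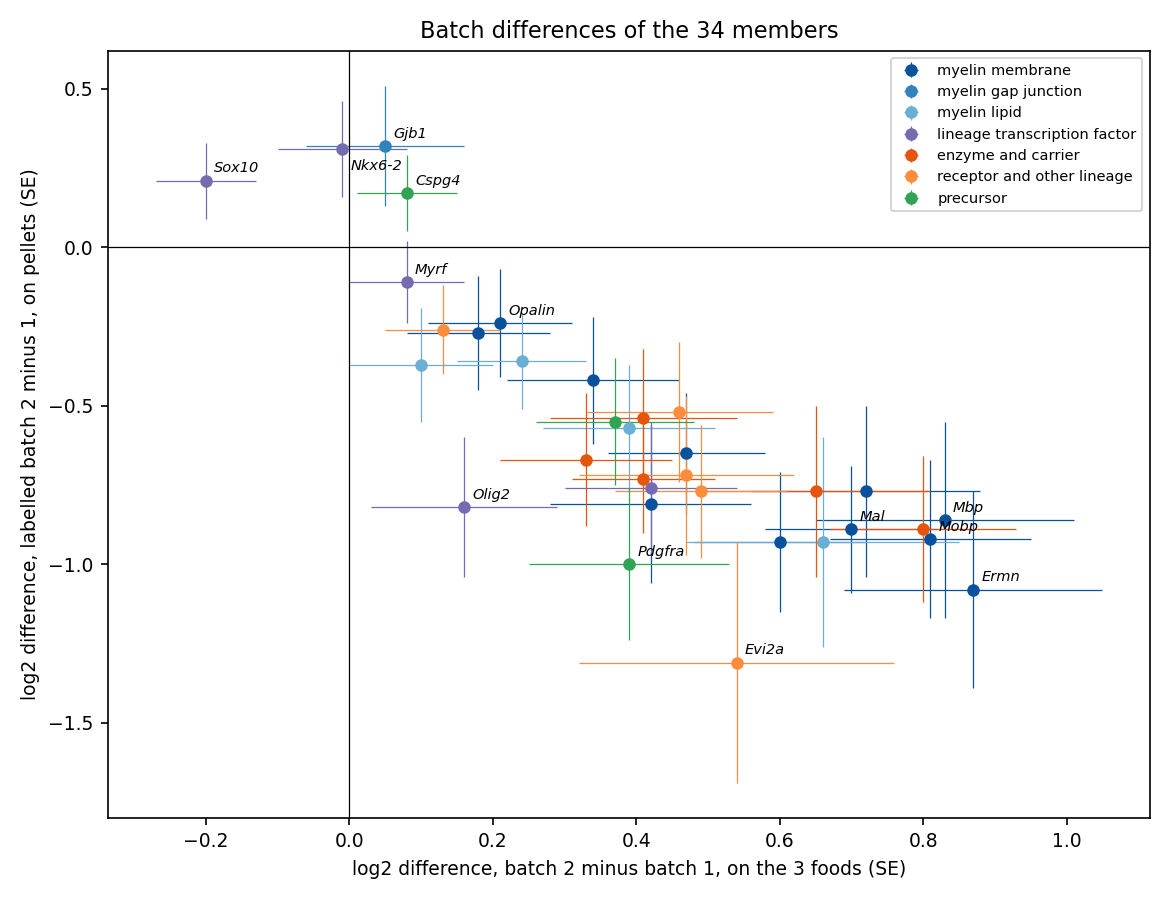
Log2 difference of each of the 34 genes between labelled batches 2 and 1 on the 3 foods (horizontal) and on pellets (vertical), with SE from limma, coloured by role. Most genes lie at the lower right, as Ermn does at 0.87 and -1.08, and Sox10 lies at the upper left at -0.20 and 0.21.

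Genes read by several probe sets allowed a check of these directions. Of the 34 genes, 15 had more than 1 probe set above the filter. All probe sets had the same sign for 12 of the 15 in the comparison of human and chimpanzee diets, for 10 in that of pellets with the other diets, and for 13 in the batch difference on the 3 foods. Mbp had 8, of which the 6 with a mean level above 11 had log2 batch differences of 0.67 to 0.84, while the others, at mean levels of 7.15 and 6.24, had 0.19 and -0.45. The 3 probe sets of Lpar1 differed by 0.34, 0.35 and 0.37 between human and chimpanzee diets. For Pdgfra, 2 probe sets differed by 0.08 and 0.09 in the same comparison, and for Cspg4, 2 differed by -0.06 and 0.02.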

How the data were processed

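Affymetrix whole-genome mouse arrays measured RNA of the right cerebral hemisphere of 24 mice, 6 per diet and 3 per diet and labelled batch. The deposited values are log2 expression levels per probe set, which the authors made with rma in the affy package, with background correction, quantile normalization and median polish. The versions are not given in the sources used here. The methods leave out 1 degraded pellet brain array without naming it, so all 24 arrays were used.

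For each gene, the probe set annotated to that gene alone with the highest mean was kept, and features whose mean log2 level fell short of 4.07, the median over probe sets, were removed, leaving 13839 features, of which 11645 have a gene symbol. limma 3.58.1 in R 4.3.3 fitted diet and labelled batch over all arrays, and for batch differences the 8 cells of diet and batch. P-values were adjusted after Benjamini and Hochberg over all features, and an adjusted p under 0.05 was a call. P-values measure the spread between single mice around the fitted terms. In the diet comparisons batch was a single term shared by all diets. The opposite batch difference on pellets therefore also entered that spread, but not in the fit of 8 cells. The number of arrays limits the precision. The code was tested on simulated data.

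The genes and lists were chosen with earlier results of these data known. Values are given in full for the up to 6 genes per comparison with the smallest unadjusted p and 1 direction in both batches, and for Mbp, Mog, Sox10, Olig2, Pdgfra, Cspg4 and Gpr17. Any other gene of the group that is named, such as Aspa or Evi2a, was chosen after its values were seen. Of other lists, genes were named among the 3 with the smallest p. Alternatives were other filters, probe set rules, normalizations, batch terms, array weights, left out arrays and a two-way analysis of variance after the methods, which themselves kept genes by detection calls and took the smallest p of a gene's probe sets. Leaving out 3 arrays together, the exchanged pellet labels with 1 array left out, and the array spread as a covariate were chosen after seeing the data. Tables were summarised in Python 3.11.15 with pandas 2.3.3, numpy 2.4.6 and matplotlib 3.10.9.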

Additional observations from a re-analysis of the deposited data

Results flagged for a closer look

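The array of pellet batch 2 replicate 1 lay far below the other 5 pellet arrays for 10 of the 34 genes. Its log2 level was 7.59 for Mag, 5.24 for Ermn, 7.08 for Pllp, 6.26 for Ugt8a and 7.11 for Fa2h. It was 6.57 for Gpr37, 6.31 for Lpar1, 4.37 for Evi2a, 5.78 for Pdgfra and 5.3 for Gpr17. On the chimpanzee diet, Cldn11 stood apart at 8.45 in batch 2 replicate 3 and Gal3st1 at 4.82 in batch 1 replicate 2. In all, 12 of 136 sets of 6 arrays held such an array, where chance gives about 1 in 20, and the genes of the group are not independent of each other.

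For 29 of the 34 genes the difference between labelled batches on pellets differed from that on the 3 foods in limma, as it did for 69.3% of all features. The log2 contrast was -1.59 for Mal, -1.69 for Car2, -1.53 for Tspan2, -1.73 for Mobp, -1.14 for Gsn and -1.95 for Ermn, with adjusted p of 4.1e-05 to 0.0002. Without pellet batch 2 replicate 1 these were -1.38, -1.38, -1.15, -1.50, -0.90 and -1.37, in the same order. The 18S rRNA signal ran opposite to these genes, being higher in batch 1 on the 3 foods and in labelled batch 2 on pellets.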

How the results depend on the processing

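Of 490 recomputed medians of mature and precursor genes 476 stayed within the SD between arrays (0.23 and 0.16). That is too wide to show that the human minus chimpanzee medians, 0.24 and 0.08, held. Of 653 recomputed differences of named genes 1 changed sign. With array weights, Nkx6-2 on pellets went from 0.16 to -0.19 (adjusted p = 0.065 in limma). Array weights also called 15 of the 34 genes among the 4 diets (18.1% of all features), 1 between human and chimpanzee diets (0.405%), 2 between fast food and chimpanzee diets (0.788%) and 13 on pellets (25%), where the medians of mature and precursor genes were 0.23 and 0.11. Cdh19 on pellets was the 1 gene called with no filter on the level, with the mean over probe sets, after quantile normalization once more, with an intensity trend, with no batch term, with the 18S signal or the array spread in place of batch, and with exchanged pellet labels and 1 pellet array left out. In the same order, 5, 4, 14, 3, 3, 4, 10 and 23 features were called, of 27354 with no filter and of 13839 in the rest. With exchanged pellet labels alone 5 of the 34 genes were called on pellets, against 13% of all features. The diet F test called 1 gene with the 18S signal, the array spread or exchanged labels, against 10, 24 and 19 of 13839 features. Within labelled batch 2 it called 24 genes (43.2% of features). Labelled batch 1 alone gave 3 calls (3.43% of features) and medians of 0.32 and 0.16 for mature and precursor genes on pellets, and labelled batch 2 alone gave 27 calls (67.3% of features) and -0.86 and -0.76. These medians were 0.02 and -0.08 without the 3 arrays that stood apart and 0.06 and -0.07 with the array spread as a covariate, and the precursor median was -0.14 with exchanged labels and 1 array left out. After quantile normalization once more, 8 genes were called for batch on the 3 foods (20.2% of features), with medians of 0.15 and 0.14. The interaction then called 5 genes (24.9% of features) and the contrast of batch differences 18 (51.8%). The share of the 34 genes was under the background for the interaction and near it otherwise. Exchanged labels, with or without that array, gave 0 calls (0 to 1 features) for the interaction and the contrast in limma. The two-way analysis of variance after the methods, with the filter and arrays used here, was read at an unadjusted p under 0.01. Among the 4 diets it called 1 of 7 genes left and 126 features, with 7815 of 13839 features removed for an interaction. Between human and chimpanzee diets it called 2 of 31 genes and 170 features, with 510 removed. Against the chimpanzee diet, fast food gave 3 of 33 genes and 156 features, with 460 removed. The cafeteria diet gave 2 of 34 genes and 88 features, with 330 removed. Between the human diets it called 1 of 34 genes and 150 features, with 188 removed. On pellets it called 1 of 6 genes and 182 features, with 10310 removed, and that gene also passed after adjustment. The cause of these changes was not tested.

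With each array left out in turn, 0 to 1 genes were called by the diet F test and on pellets, against 1 to 8 and 1 to 5 features. In each other comparison of diets 0 genes were called, and 0 to 4 features. The call on pellets was Cdh19, without chimpanzee batch 1 replicate 3, fast food batch 1 replicate 1, cafeteria batch 1 replicate 1 or pellet batch 1 replicate 3. The mature median ran from 0.20 to 0.30 between human and chimpanzee diets and from -0.35 to -0.01 on pellets, where the precursor median ran from -0.41 to -0.08. Without pellet batch 2 replicate 1 the pellet medians were -0.01 and -0.08. The mature one was -0.11 without pellet batch 2 replicate 2 and -0.35 without pellet batch 1 replicate 1 or 2. Batch on the 3 foods called 18 to 25 genes (3452 to 6789 of 13839 features), the interaction 18 to 26 (4743 to 8686) and the contrast 26 to 29 (7785 to 10474). With the replicate block (batch and replicate number), 0 genes were called in each comparison of diets and the mature median between human and chimpanzee diets was 0.24. The numbers did not pair the arrays: deviations had a median correlation of -0.02 in 36 pairs with the same number and in 72 other pairs.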
